A study of Mus musculus with 12 samples.

Results

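A set of 10 genes of nucleic-acid sensing was followed in mouse pancreatic ductal adenocarcinoma cells with and without Jak1 deletion. They were the RNA helicases Ddx58 (newer symbol Rigi), Ifih1 and Dhx58, their adaptor Mavs, the RNA receptor Tlr3, the double-stranded RNA kinase Eif2ak2, the Z-form nucleic-acid sensor Zbp1, the RNA-editing enzyme Adar, the DNA sensor Cgas (older symbol Mb21d1) and its partner Sting1 (older symbol Tmem173). The set was chosen by name and function, with earlier results of these data known. All 10 members were found by symbol among the 20432 genes of the deposited table. Of these, 9 reached 1 CPM (counts per 1e+06 reads) in at least 6 of 12 libraries and were tested with 12734 genes in all. Zbp1 did not.

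The study sequenced poly(A)-selected RNA from 6 isogenic pairs of mouse cell lines, numbered 52205, 52419, 52424, 53105, 53369 and 53371. The 6 Cre libraries, which the labels give as JAK1 KO, came from lines infected with a Cre retrovirus and selected in puromycin at 2, 4 and then 7 µg/ml. The 6 parental libraries, which the labels give as wild type, came from the same lines without Cre. Every line and condition has 1 library, and no line infected with an empty vector was analysed here, so infection, selection and time in culture cannot be told apart from the deletion. Apart from the Cre retrovirus given to the Cre lines, the labels' protocols name no virus, nucleic acid or interferon given to the cells. The parental levels are thus those of cultures for which no added stimulus is named, whereas the Cre lines had met a retrovirus. Whether the parental cultures were free of interferon was not tested.

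RIG-I (Ddx58) and MDA5 (Ifih1) bind viral double-stranded RNA in the cytosol, LGP2 (Dhx58) modulates them, and MAVS on the mitochondrial membrane passes their signal to IRF3, IRF7 and NF-kB. cGAS makes the second messenger cGAMP when it binds DNA, and STING relays it to TBK1. Many sensor genes are themselves interferon-stimulated: interferon acts through receptors that signal by JAK1 and TYK2, and a complex that holds STAT2 and IRF9 then binds interferon-stimulated response elements (ISREs) in their promoters.

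Per library, 11.5 to 18.04 M reads fell in genes (M, 1e+06 reads), so that 1 read was worth 0.0569 to 0.0896 CPM, and levels under 3 reads (0.171 to 0.269 CPM) were read as near the limit of detection. Jak1 itself was at 104 to 234 CPM in Cre libraries and at 125 to 207 CPM in parental libraries. A total over the gene checks nothing about which exons Cre removed. The lines differed in their own markers: the summed level of 6 epithelial genes was 358 to 9258 CPM in Cre libraries and 442 to 7515 CPM in parental libraries. Line 52419 gave the lowest sum of each group. Cdh1, Krt8 and Epcam were each under 1 CPM in both of its libraries, for example Cdh1 at 0.615 CPM in its Cre and 0.372 CPM in its parental library. Epcam was also under 1 CPM in both libraries of 53369. The rest of the list was present in line 52419: Krt18 at 188 CPM in its Cre and 253 CPM in its parental library, Sox9 at 149 and 171 CPM, and Krt19 at 19.9 and 15.5 CPM. Summed mesenchymal markers were at 1019 to 4109 CPM in Cre and 609 to 3494 CPM in parental libraries. Summed fibroblast markers were highest in line 53369, at 598 CPM in its Cre and 1236 CPM in its parental library, and at 7.69 to 92.3 CPM in the other Cre and 9.14 to 125 CPM in the other parental libraries. The summed level of the 8 measured leukocyte markers of 9 listed was 2.02 to 10.0 CPM in Cre libraries and 2.10 to 26.4 CPM in parental libraries. Adgre1 was at 0 in 11 of 12 libraries, whereas Cd68 was present in all 12. In the parental library of 52424, which gave the highest sum, Cd68 alone was at 23.1 CPM. The 5 endothelial markers summed to 0.627 to 5.32 CPM in Cre and 0.612 to 6.85 CPM in parental libraries. The part of these differences between lines in the values below was not tested.

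None of the 9 tested members passed the threshold between Cre and parental libraries. The test was limma on log2(CPM + 0.5) with cell line as a block, 2-sided, with Benjamini-Hochberg adjustment over all tested genes. Of all genes, 3 passed, or 0.0236%, and all 3 were lower in Cre libraries. At an unadjusted p under 0.05, 2 of the 9 members were lower, Dhx58 and Sting1, and none higher, against 8.18% of all genes lower. Only Dhx58 was lower in 6 of 6 pairs, against 4.56% of all genes. On the recovered reads, edgeR and DESeq2 also called none of the 9, while of all genes edgeR called 5 and DESeq2 called 270. The estimate was below 0 for 8 of the 9 members, against 50.1% of all genes, and the median log2 change over the members was -0.31, against -0.00024 over all genes. Without line 52419 the members' median was -0.12, and 8 of 9 estimates were still below 0. Because the set was chosen with earlier results of these data known, its contrasts with all genes are descriptions. The values of the Cre and the parental groups overlapped in all 10 members. Among all tested genes they were apart in 0.0942%, so overlap was the rule.

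**Figure D1:**
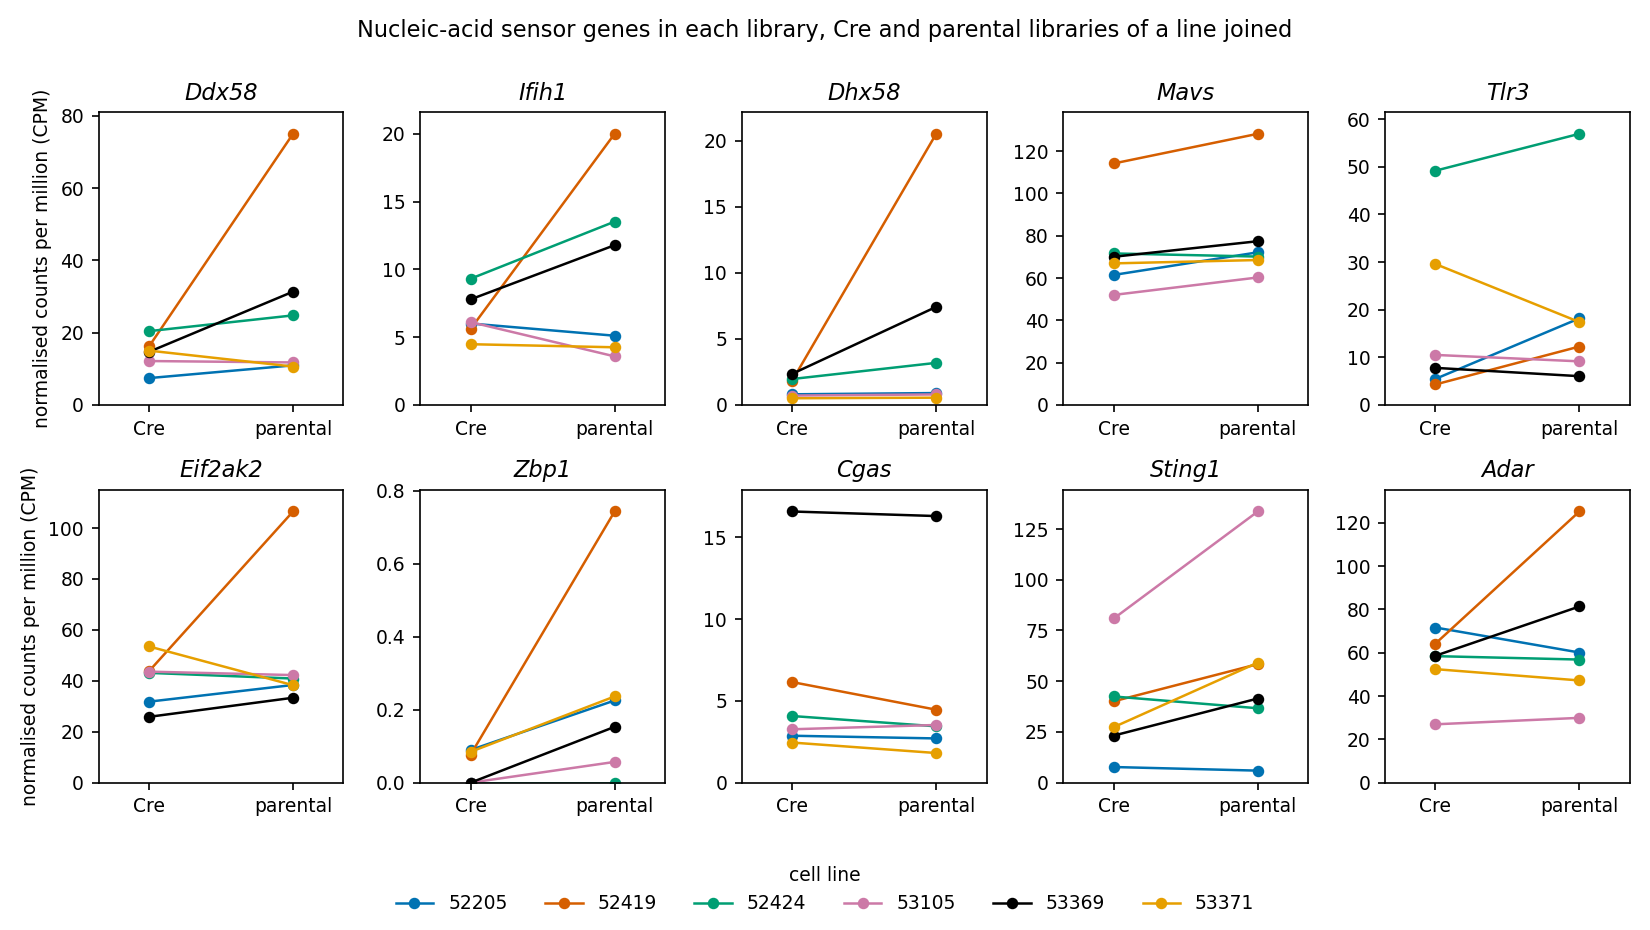
Level of each of the 10 sensor genes in CPM (linear axes from 0, a separate scale for each gene) in the Cre and the parental library of each of 6 cell lines, with the libraries of a line joined. Each point is 1 library. In line 52419 Dhx58 stood at 1.84 CPM in the Cre and 20.5 CPM in the parental library, whereas Mavs stood at 114 and 128 CPM.

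The members divided by line. In line 52419, 8 of 9 members were lower in the Cre library, against 47.3% of all genes, with a median log2 change of -1.27. Of the members, 5 (Ddx58, Ifih1, Dhx58, Tlr3 and Eif2ak2) were lower by a log2 change of 1 or more, against 2.43% of all genes in that pair. In line 53369, 7 of 9 were lower, against 48.5% of all genes, with a median of -0.47. There Ddx58 and Dhx58 passed that size, against 0.864% of all genes. In line 52205 the median was -0.10, and Tlr3 alone passed it, against 4.09% of all genes. In line 53371 the median was 0.15, with 6 of 9 members higher, while 52.9% of all genes were lower. Sting1 alone passed the size there, against 2.98% of all genes. No member passed it in line 52424 (3.81% of all genes; median 0.030) or in line 53105 (0.903% of all genes; median -0.097), and no member was higher by this size in any line. A pair of single libraries has no replicate check, so these are descriptions of 6 pairs.

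**Figure D2:**
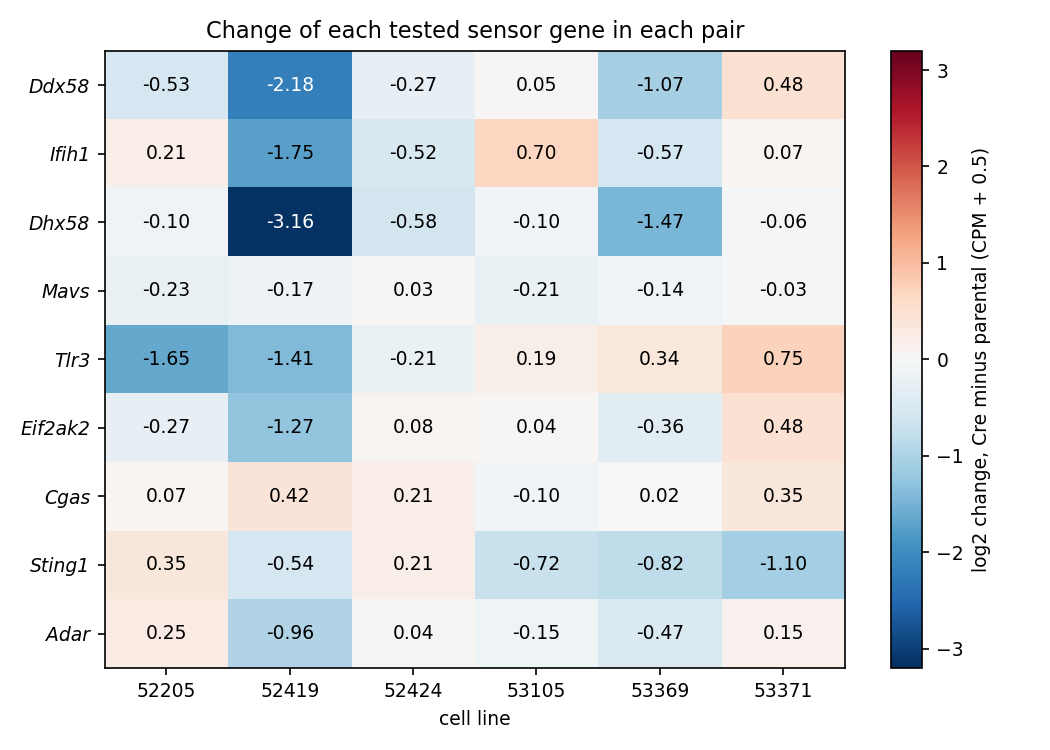
Log2 change, Cre minus parental on the log2(CPM + 0.5) scale, of the 9 tested sensor genes (rows) in the 6 pairs (columns), with each value printed in its cell and blue for lower and red for higher in the Cre library. The lowest values are in the column of line 52419, where Dhx58 reads -3.16 and Ddx58 -2.18, and the row of Mavs holds values between -0.23 and 0.03.

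To show the DNA at those genes, the 250 bases upstream of the RefSeq start (GRCm38.p6) are given for the members that were lower by a log2 change of 1 or more in line 52419 and have a window in the table. They are Ddx58 (chr4:40239826-40240075), Ifih1 (chr2:62646256-62646505), Tlr3 (chr8:45410381-45410630) and Eif2ak2 (chr17:78882573-78882822), all on the minus strand and written 5′ to 3′ along the gene. The window of Tlr3 belongs to a RefSeq start inside the span given for that gene, and the other 3 lie just before theirs. Capitals mark a match to GAAANNGAA, the core of the ISRE, or to TTCNNNGAA, the core of the STAT dimer site, on either strand.
Ddx58: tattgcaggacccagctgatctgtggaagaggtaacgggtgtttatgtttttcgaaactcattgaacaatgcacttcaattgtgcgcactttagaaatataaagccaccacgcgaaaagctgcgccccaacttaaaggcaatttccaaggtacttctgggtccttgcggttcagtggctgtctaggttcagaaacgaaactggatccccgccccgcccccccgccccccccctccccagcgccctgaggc
Ifih1: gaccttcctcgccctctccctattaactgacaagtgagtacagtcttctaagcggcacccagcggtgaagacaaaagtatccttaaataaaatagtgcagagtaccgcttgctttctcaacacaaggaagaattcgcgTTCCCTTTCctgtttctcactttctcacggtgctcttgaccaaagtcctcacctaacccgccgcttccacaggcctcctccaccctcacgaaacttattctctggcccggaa
Tlr3: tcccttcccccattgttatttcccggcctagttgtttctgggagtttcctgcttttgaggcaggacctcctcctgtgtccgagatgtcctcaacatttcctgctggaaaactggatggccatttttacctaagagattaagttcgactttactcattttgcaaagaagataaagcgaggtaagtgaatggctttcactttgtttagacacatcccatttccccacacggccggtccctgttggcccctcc
Eif2ak2: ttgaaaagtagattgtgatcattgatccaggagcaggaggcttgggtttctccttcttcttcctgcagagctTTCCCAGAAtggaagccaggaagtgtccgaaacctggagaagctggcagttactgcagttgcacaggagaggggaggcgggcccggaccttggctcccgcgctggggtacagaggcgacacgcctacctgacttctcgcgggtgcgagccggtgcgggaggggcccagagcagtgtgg

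Ifih1 held 1 ISRE-core match, which began 112 bases before the start and lay on the opposite strand. Eif2ak2 held 1 STAT-core match, which began 178 bases before the start. The windows of Ddx58 and Tlr3 held neither string of letters. Among the 7 members with a usable window, the ISRE core was found in 2, Ifih1 and 1 of the 3 windows of Adar, which lies inside that gene at chr3:89730468-89730717, and the STAT core in Eif2ak2. Of all 27025 genes with a window of this length, 8.18% held the ISRE core in at least 1 window and 8.13% the STAT core. Of the 9793 tested genes with a window, as these 7 members are, the shares were 7.10% and 6.96%. A gene with several windows, as Adar with 3, has more places for a match, so these shares are not matched for windows. These matches describe letters and not bound sites.

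Among the 9 tested members, the 3 RIG-I-like receptors gave the lowest log2 changes of line 52419. Ddx58 (Entrez 230073; chromosome 4, 40203777 to 40239825, GRCm38) was measured at 7.44, 16.2, 20.4, 12.2, 14.7 and 15.0 CPM in the Cre libraries of lines 52205, 52419, 52424, 53105, 53369 and 53371. In the parental libraries, in the same line order, it was at 10.96, 75.1, 24.8, 11.8, 31.4 and 10.6 CPM. The Cre libraries thus lay within a 2.75-fold range, against a 7.06-fold range in parental libraries, and the parental library of 52419 stood far above the rest. Ddx58 averaged 14.3 ± 4.33 CPM in Cre libraries and 27.4 ± 24.9 CPM in parental libraries (SD, n = 6 each). Its log2 change was -0.59 (SE 0.29; 95% interval -1.24 to 0.065; limma adjusted p = 0.371), lower in 4 of 6 pairs. Without line 52419 the estimate was -0.27.

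Ifih1 (Entrez 71586; chromosome 2, 62595618 to 62646255) was at 6.01, 5.61, 9.31, 6.11, 7.79 and 4.48 CPM in the 6 Cre libraries and at 5.11, 20.0, 13.5, 3.58, 11.8 and 4.25 CPM in the parental ones, in the same line order. The lines went both ways: Ifih1 was lower in the Cre library of 52419, 52424 and 53369 and higher in the other 3. The means were 6.55 ± 1.72 CPM in Cre and 9.71 ± 6.53 CPM in parental libraries (SD, n = 6 each). The log2 change was -0.31 (SE 0.27; limma adjusted p = 0.609). It was -0.02 without line 52419 and -0.51 without line 53105.

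Dhx58 (Entrez 80861; chromosome 11, 100694884 to 100704271), which lacks the signalling domains of the other RIG-I-like helicases, rested on few reads in most lines. It stood at 0.807, 1.84, 1.96, 0.712, 2.36 and 0.507 CPM in Cre libraries and at 0.901, 20.5, 3.19, 0.796, 7.42 and 0.551 CPM in parental libraries, in the same line order. Lines 52419 and 53369 made most of the difference. In lines 52205, 52424, 53105 and 53371 it had 9, 27, 12 and 6 reads in Cre libraries and 12, 37, 14 and 7 reads in parental libraries, differences that were not detectable at this depth. Dhx58 averaged 1.37 ± 0.781 CPM in Cre and 5.56 ± 7.77 CPM in parental libraries (SD, n = 6 each). Its log2 change was -0.91 (SE 0.39; 95% interval -1.79 to -0.036; unadjusted limma p 0.0429; limma adjusted p = 0.320), and the adjusted p was 0.287 with edgeR and 0.230 with DESeq2. Without line 52419 the estimate was -0.46 and the unadjusted limma p 0.108. Leaving out line 52424 or 53369 also took the unadjusted p past 0.05, to 0.0610 and 0.106.

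In these 3 helicases, the 3 lines with the highest parental level were the same, 52419, 52424 and 53369, and in each of them each gene was lower in the Cre library. A change computed from the parental level shares that value with it, so this is a description. Across all 12 libraries the 3 genes varied together, with Pearson's r on the log2 scale of 0.87 for Ddx58 and Ifih1, 0.93 for Ddx58 and Dhx58 and 0.91 for Ifih1 and Dhx58. Over the 10 libraries without line 52419 these were 0.78, 0.84 and 0.87. The libraries come from 6 lines, with both conditions of a line among the points. The spread over lines, as the SD of log2(CPM + 0.5), was 0.47 in Cre and 1.10 in parental libraries for Ddx58. For Ifih1 it was 0.34 in Cre and 0.96 in parental libraries, and for Dhx58 it was 0.63 in Cre and 1.72 in parental libraries. Without 52419 it remained smaller in Cre libraries for each of the 3, for example 0.37 in Cre against 0.82 in parental libraries for Ifih1. Over all 9 tested members the SD was smaller in Cre libraries for 8, or 5 without line 52419, against 51.8% and 53.0% of all genes.

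Mavs (Entrez 228607; chromosome 2, 131234063 to 131248025), the adaptor of Ddx58 and Ifih1, kept to a narrow range of change. Its levels were 61.5, 114, 71.6, 52.0, 70.1 and 66.9 CPM in Cre libraries and 72.2, 128, 70.2, 60.3, 77.4 and 68.5 CPM in parental libraries, in the same line order. Both libraries of 52419 stood above those of all other lines. The mean was 72.7 ± 21.5 CPM in Cre and 79.5 ± 24.5 CPM in parental libraries (SD, n = 6 each). The log2 change was -0.13 (SE 0.070; 95% interval -0.28 to 0.031; limma adjusted p = 0.418), lower in 5 of 6 pairs. That interval was the narrowest of the members.

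Tlr3 (Entrez 142980; chromosome 8, 45395665 to 45411075), the endosomal receptor of double-stranded RNA that signals through TICAM1 and not MAVS, differed between lines in its own way. It was at 5.47, 4.30, 49.2, 10.5, 7.79 and 29.6 CPM in Cre libraries and at 18.2, 12.3, 56.9, 9.16, 6.04 and 17.4 CPM in parental libraries, in the same line order. Line 52424 held the highest level in both groups. The log2 changes ran across 0, being -1.65 in 52205 and -1.41 in 52419, and 0.34 in 53369 and 0.75 in 53371. The group means were 17.8 ± 17.9 CPM in Cre and 20.0 ± 18.7 CPM in parental libraries (SD, n = 6 each), and the log2 change was -0.33 (SE 0.30; limma adjusted p = 0.622). It was -0.07 without line 52205, -0.12 without line 52419 and -0.55 without line 53371. Pearson's r of Tlr3 with Ddx58 was 0.16 over 12 libraries and 0.36 over 10 without line 52419.

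Eif2ak2 (Entrez 19106; chromosome 17, 78850504 to 78882572) encodes PKR, which halts translation by phosphorylating eIF2α. It stood at 31.8, 43.8, 43.1, 43.6, 25.9 and 53.5 CPM in Cre libraries and at 38.4, 107, 40.9, 42.3, 33.4 and 38.3 CPM in parental libraries, in the same line order. The parental library of 52419 was apart, and the other 5 parental libraries lay between 33.4 and 42.3 CPM. The log2 change was -0.22 (SE 0.19; 95% interval -0.64 to 0.21; limma adjusted p = 0.604), and it was -0.0058 without line 52419 and -0.36 without line 53371. Pearson's r with Ddx58 was 0.68 over 12 libraries and 0.068 over the 10 without that line.

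Zbp1 (Entrez 58203; chromosome 2, 173206612 to 173218959), which recruits RIPK3 in necroptosis, was close to absent. Its reads were 1, 1, 0, 0, 0 and 1 in Cre libraries and 3, 10, 0, 1, 2 and 3 in parental libraries, in the same line order. They summed to 3 in Cre and 19 in parental libraries, and only the parental library of 52419, at 0.743 CPM, was clearly above 3 reads. Zbp1 was not tested.

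Adar (Entrez 56417; chromosome 3, 89714469 to 89753455) encodes the enzyme that edits adenosine to inosine in double-stranded RNA and so hides self RNA from MDA5 and PKR. It was at 71.6, 64.2, 58.4, 26.9, 58.6 and 52.4 CPM in Cre libraries and at 60.1, 125, 56.8, 29.9, 81.3 and 47.2 CPM in parental libraries, in the same line order. Lines 52419 and 53369 were lower in the Cre library, and the other 4 differed by a log2 change of at most 0.25 in size. The log2 change was -0.19 (SE 0.15; 95% interval -0.52 to 0.15; limma adjusted p = 0.566), and -0.04 without line 52419. Totals per gene do not separate the interferon-inducible form of ADAR1 from the constitutive one. Chrnb2, on the opposite strand, overlaps 16.8% of the exon bases of Adar but was itself at 0.150 to 1.25 CPM. Antisense transcripts also overlap up to 7.32% of the exon bases of Dhx58, Tlr3, Eif2ak2 and Cgas, and the library protocol names no strand-marking step.

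Cgas was the only tested member with an estimate above 0. Cgas (Entrez 214763; chromosome 9, 78430518 to 78443237) was at 2.87, 6.15, 4.07, 3.26, 16.6 and 2.45 CPM in Cre libraries and at 2.70, 4.46, 3.44, 3.53, 16.3 and 1.81 CPM in parental libraries, in the same line order. Line 53369 stood above the others in both groups. The log2 change was 0.16 (SE 0.14; 95% interval -0.14 to 0.47; limma adjusted p = 0.585), higher in 5 of 6 pairs. In line 52419, where 8 members were lower, Cgas was higher by 0.42 on the log2 scale, on 80 reads in the Cre and 60 reads in the parental library.

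Sting1 (Entrez 72512; chromosome 18) was at 7.71, 40.1, 42.5, 80.9, 23.2 and 27.4 CPM in Cre libraries and at 5.93, 58.4, 36.7, 134, 41.5 and 59.2 CPM in parental libraries, in the same line order. It was lower in the Cre library of 52419, 53105, 53369 and 53371 and higher in that of 52205 and 52424. Sting1 averaged 37.0 ± 24.9 CPM in Cre and 55.9 ± 42.7 CPM in parental libraries (SD, n = 6 each). Its log2 change was -0.44 (SE 0.19; 95% interval -0.86 to -0.015; unadjusted limma p 0.0436; limma adjusted p = 0.321), with an adjusted p of 0.315 in edgeR and 0.220 in DESeq2. Unlike those of Ddx58 and Dhx58, its estimate did not rest on line 52419 and was -0.42 without it. The estimate was -0.30 without line 53371, and the unadjusted limma p was then 0.129. It was 0.0899 without 52419, 0.116 without 53105 and 0.121 without 53369. The 2 members of the DNA-sensing pair therefore had estimates of opposite sign, and Pearson's r between them was 0.04 over 12 libraries.

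**Figure D3:**
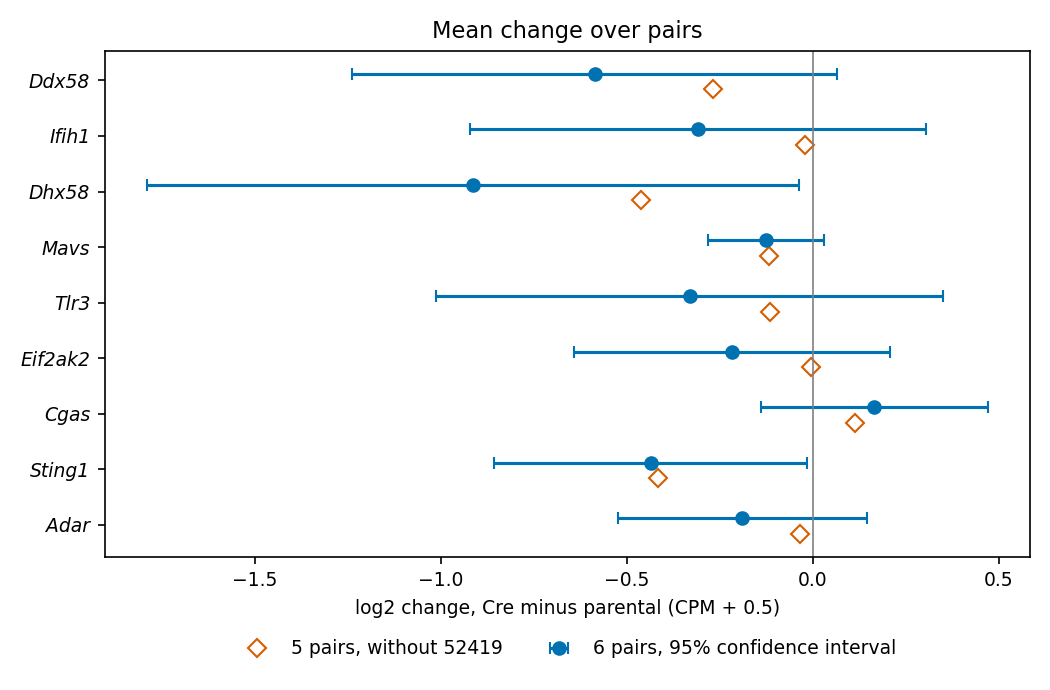
Mean log2 change, Cre minus parental on the log2(CPM + 0.5) scale, of the 9 tested sensor genes, with filled points and bars for the limma estimate over 6 pairs and its 95% confidence interval, and open diamonds for the estimate over 5 pairs without line 52419. The intervals of Dhx58 (-1.79 to -0.036) and Sting1 (-0.86 to -0.015) end just below 0 before any adjustment for multiple testing, and the diamond of Sting1 (-0.42) stays beside its point while that of Ddx58 (-0.27) moves toward 0.

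Levels were compared between genes per kilobase of annotated exon. Mavs was highest, with a mean of 21.7 CPM per kb in Cre and 23.8 in parental libraries, and Sting1 followed with 13.5 in Cre and 20.4 in parental libraries. These neighbours overlapped, Mavs being above Sting1 in 5 of 6 Cre and 4 of 6 parental libraries. Next came Eif2ak2 (7.88 CPM per kb in Cre, 9.77 in parental libraries) and Adar (6.82 in Cre, 8.22 in parental libraries), which also overlapped. Adar was above Ddx58 in all 12 libraries. Ddx58 (2.03 in Cre, 3.89 in parental libraries) and Tlr3 (3.42 in Cre, 3.84 in parental libraries) changed places between lines, Ddx58 being the higher in 3 of 6 Cre and 2 of 6 parental libraries. Dhx58 averaged 0.417 CPM per kb in Cre and 1.70 in parental libraries, Cgas 1.43 in Cre and 1.30 in parental libraries, and Ifih1 0.802 in Cre and 1.19 in parental libraries. Dhx58 was below Cgas in all 6 Cre libraries and above it in 2 of 6 parental libraries. Zbp1 was last, at 0.0119 in Cre and 0.0668 in parental libraries, and Ifih1 was above it in all 12.

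**Figure D4:**
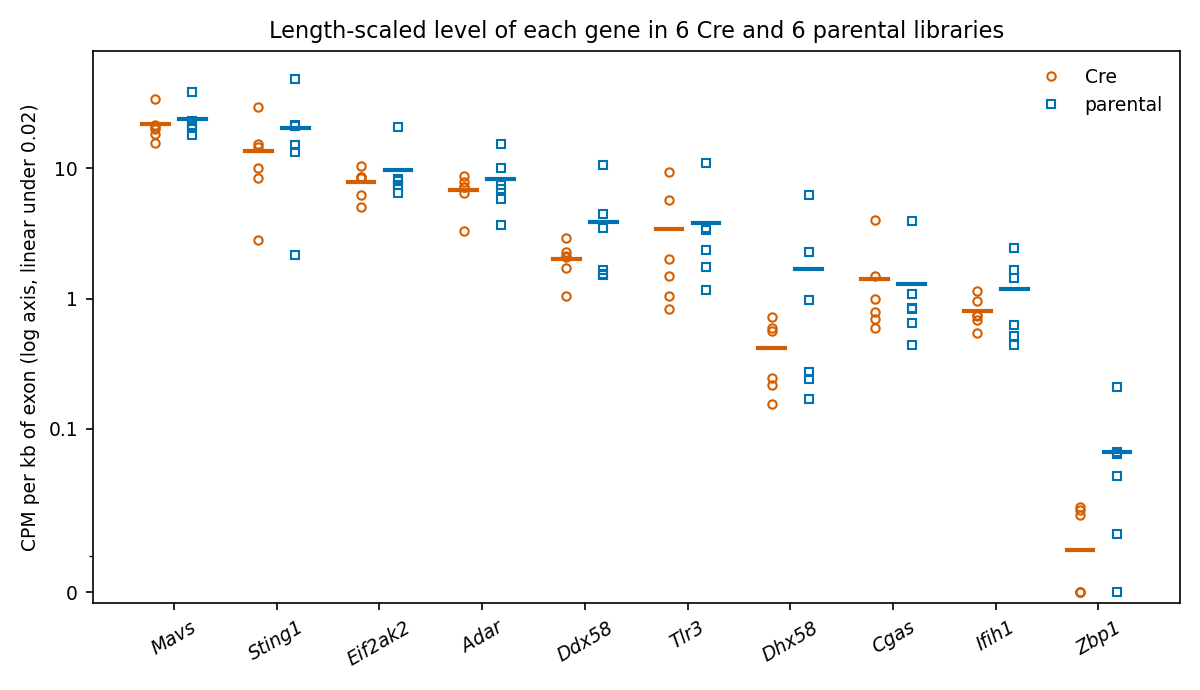
Level of the 10 sensor genes in CPM per kilobase of annotated exon, on a log axis that turns linear near 0, in 6 Cre libraries (circles) and 6 parental libraries (squares), with bars for the group means and genes in order of their parental mean. The adaptor Mavs averaged 21.7 in Cre and 23.8 in parental libraries, whereas Zbp1 averaged 0.0119 in Cre and 0.0668 in parental libraries.

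For each tested member, the genes outside the set with the most similar log2 level over the 12 libraries were listed. For Ddx58 these included Ereg, with Pearson's r of 0.87, and 0.86 over the 10 libraries without line 52419. The nearest to Ifih1 were Rbm43 (0.88, 0.91) and Apobec1 (0.87, 0.79), and to Dhx58 Gad2 (0.88, 0.86) and Rgmb (0.87, 0.79). Mavs lay nearest to Rbpms2 (0.96, 0.86) and Oser1 (0.96, 0.92), Tlr3 to Tenm1 (0.97, 0.97) and Atp8b1 (0.94, 0.97), and Cgas to Utp4 (0.98, 0.99) and Atad2 (0.97, 0.97). Eif2ak2 lay nearest to Tapbp, at 0.87, which was 0.52 without line 52419, and to Ism1 (0.86, 0.74). Sting1 lay nearest to Nr2f1 (0.92, 0.93) and Sox9 (0.86, 0.86). The nearest to Adar were an unnamed Entrez gene (0.89, 0.88) and Bvht (0.88, 0.89). Between members outside the RIG-I-like group, Mavs and Adar gave 0.76 over 12 libraries and 0.80 over 10, and Sting1 and Adar gave -0.39 over 12 and -0.67 over 10. All of these describe 6 lines in pairs.

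The genes that carry the sensors' signal were examined in the same fit, in lists also chosen with earlier results of these data known. Of 16 genes that relay it from MAVS, TLR3 and STING, 12 lay below 0 and 4 above, against 50.1% of all genes below 0. Their median log2 change was -0.09, or -0.06 without line 52419, and none passed in limma or edgeR. DESeq2, which called 270 of all genes, called Irf7, the interferon-inducible transcription factor that amplifies type I interferon. Irf7 averaged 1.64 ± 1.15 CPM in Cre and 10.8 ± 16.5 CPM in parental libraries (SD, n = 6 each). Its log2 change of -1.64 (limma adjusted p = 0.253) was negative in 6 of 6 pairs, against 4.56% of all genes. In line 52419 its change was -4.83, and without that line the estimate was -1.01. The ubiquitin ligase Trim56 (-0.25), the PKR activator Prkra (-0.26) and Azi2 (-0.18), which binds TBK1, gave smaller estimates. Of the 23 other sensors listed, 22 were measured and 12 tested. Of these 12, 9 were below 0, against 50.1% of all genes, with a median of -0.20, or -0.05 without line 52419. Ifit1, which binds RNA lacking cap methylation, averaged 2.61 ± 4.04 CPM in Cre and 8.85 ± 12.3 CPM in parental libraries (SD, n = 6 each). The parental libraries of 52419 and 53369 were at 20.9 and 28.1 CPM, and the other parental libraries at 0.526 to 2.39 CPM. Its log2 change was -1.15 (limma adjusted p = 0.205), or -0.83 without line 52419, and DESeq2 alone called it. Ifi203 gave -0.98, or -0.38 without line 52419, Dhx9 gave 0.22 and Ifit2 0.41.

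The 14 tested of 15 genes that degrade nucleic acids or restrain the sensors split into 8 below and 6 above 0, against 50.1% of all genes below 0. Their median was -0.03, which without line 52419 turned to 0.0063. None was called by limma, edgeR or DESeq2. The dNTPase Samhd1 gave 0.26 and the ribonuclease H2 subunit Rnaseh2b 0.20 (0.12 without line 52419), whereas Rnf125, a ubiquitin ligase that acts on RIG-I, gave -0.41 and the cGAMP hydrolase Enpp1 -0.24. Of 9 genes around PKR and ZBP1, 5 were below and 4 above 0, beside the same 50.1% of all genes below 0. Their median was -0.02, or -0.05 without line 52419. Ripk3, the necroptosis kinase, averaged 16.3 CPM in Cre and 20.3 CPM in parental libraries. Its log2 change was -0.39 (limma adjusted p = 0.231), lower in 6 of 6 pairs, against 4.56% of all genes. Its substrate Mlkl gave 0.14, the PKR substrate Eif2s1 0.18 and Ppp1r15a, the phosphatase subunit that reverses its phosphorylation, -0.22 (-0.38 without line 52419).

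All 8 genes of the interferon receptor and its signal, Jak1 included, lay below 0, against 50.1% of all genes. Their median was -0.24 on the log2 scale, or -0.22 without line 52419. At an unadjusted limma p under 0.05, 4 were lower, against 8.18% of all genes. None passed in limma or edgeR, and DESeq2 called Irf9. Irf9 averaged 9.14 ± 1.40 CPM in Cre and 24.7 ± 21.4 CPM in parental libraries (SD, n = 6 each). Its log2 change of -1.08 (limma adjusted p = 0.232) was negative in 6 of 6 pairs, against 4.56% of all genes. Without line 52419, where its change was -2.95, the estimate was -0.71. Stat2 gave -0.58 (-0.31 without line 52419), Ifnar2 -0.28 and Irf1 -0.21, each lower in 5 of 6 pairs. Of 10 genes that the sensors switch on, 6 were measured and only the chemokine Cxcl10 was tested, and it gave -0.13 (limma adjusted p = 0.814), which without line 52419 turned to 0.07. Ifnb1 had 0 reads in every Cre library, and in parental libraries 2 reads in 52419 and 1 in 53369.

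Several listed genes under the filter were high in the parental library of 52419 or 53369. They are named here after their values were seen. In line 52419, Usp18, a brake on the interferon receptor, was at 0.307 CPM in the Cre and 41.5 CPM in the parental library. There Oasl2 was at 2.46 CPM in the Cre and 46.5 CPM in the parental library, and Isg15 at 2.38 CPM in the Cre and 24.4 CPM in the parental library. In line 53369 the same comparison gave 2.29 CPM in the Cre and 10.2 CPM in the parental library for Oasl2, and 6.36 CPM in the Cre and 15.9 CPM in the parental library for Isg15. The chemokine Ccl5 was at 14.6 CPM in the Cre and 37.3 CPM in the parental library of 53369, but at 6.30 CPM in the Cre and 3.79 CPM in the parental library of 52419. In parental libraries of the other 4 lines, Oasl2 was at 0.569 to 1.58 CPM. Others had their peak elsewhere: Oas3 was at 6.55 CPM in the Cre and 9.04 CPM in the parental library of 52424, and Tnf at 8.45 CPM in the Cre and 6.54 CPM in the parental library of 53371.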

How the data were processed

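Poly(A)-selected RNA of 6 Cre and 6 parental cultures was sequenced, with 1 library per line and condition. Per the submitters' processing notes, FastQC 0.11.9, featureCounts and edgeR were used, and GRCm38 and mm10 are the builds named there. Which aligner and annotation were used is not given in the sources used here. For 20432 Entrez genes the deposited signal values are the authors' normalised counts per 1e+06 reads (CPM). Dividing each library's values by the worth of 1 read gave whole numbers for 100% of values (tolerance 0.01), so the reads could be recovered. A second deposited table holds log2 values for 10903 genes and served as an alternative.

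Symbols and coordinates came from a RefSeq table of GRCm38 for 19448 genes and from GENCODE for 11 more, while 973 stayed unnamed. Exon lengths are unions of GENCODE exons. Genes at 1 CPM or more in at least 6 libraries were tested on log2(CPM + 0.5), a scale that understates changes of low genes, with limma-trend 3.58.1 in R 4.3.3 and cell line as a block. Called means a Benjamini-Hochberg adjusted p under 0.05 over all tested genes. Alternatives were the quasi-likelihood test of edgeR 4.0.16 and DESeq2 1.42.0, both on recovered reads, with other pseudocounts, filters, scalings and pairs left out. The fits of limma, edgeR and DESeq2 were also run on simulated counts, but the outcome is not reported here and lends them no support.

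The series design calls the lines isogenic pairs. Deviations from the group means correlated at 0.732 to 0.947 within lines, and all 12 libraries correlated best with their own line. The p-values therefore rest on the agreement of 6 lines, and nothing in the labels gives separate cultures within a line. The members and lists were chosen with earlier results of these data known. Named genes are the members, Jak1, the 4 genes of each list with the smallest p, and the 2 genes nearest to each member by Pearson correlation, of which 1 is not reported here. Listed genes below the filter and single marker genes were named after their values were seen. Intervals and detection limits for reads cover counting error only.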

Additional observations from a re-analysis of the deposited data

Results flagged for a closer look

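Of 20 groups of 6 libraries with the levels of the 10 members, 9 had a highest library whose gap to the next as a share of the group's range exceeded the 95% critical value of Dixon's test. A rate of about 1 in 20 groups holds only for independent groups of normally distributed values. These levels are on the CPM scale and come from the same lines, so an excess over chance was not tested. Of the 9 groups of 6 log2 changes, 1 for each tested member, 0 passed, on a scale that differs from that of the levels. For 5 members the parental library of 52419 stood apart: Ddx58 at 75.1 CPM (next 31.4), Dhx58 at 20.5 CPM (next 7.42), Mavs at 128 CPM (next 77.4), Eif2ak2 at 107 CPM (next 42.3) and Zbp1 at 0.743 CPM (next 0.236, on 10 and 3 reads). Its Cre library stood apart for Mavs, at 114 CPM (next 71.6). Tlr3 stood apart in the parental library of 52424, at 56.9 CPM (next 18.2). Cgas stood apart in both libraries of 53369, at 16.6 CPM in the Cre group (next 6.15) and 16.3 CPM in the parental group (next 4.46).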

How the results depend on the processing

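No member was called under any of the 19 alternatives, and all 168 estimates of single members kept their direction, with a smallest adjusted p of 0.114 (Sting1, library weights). The low members Dhx58 and Cgas gave no value where the filter or the deposited log2 table left them out. The count of all genes called was 3 as reported. It was 0 without a filter on low genes, 34 with library weights, 5 in edgeR and 270 in DESeq2, and 0 to 5 with 1 line left out at a time. Without the replicate block, that is, ignoring the pairing, it was 0, and no member changed its call. Over all alternatives the log2 change of Ddx58 ranged from -0.90 to -0.27, of Dhx58 from -1.33 to -0.46 and of Sting1 from -0.59 to -0.30. Those of Ifih1 (-0.53 to -0.02), Tlr3 (-0.55 to -0.07), Eif2ak2 (-0.38 to -0.0058) and Adar (-0.37 to -0.04) came close to 0, at their nearest without line 52419, or for Tlr3 without line 52205. Mavs ranged from -0.16 to -0.10 and Cgas from 0.11 to 0.22. Depth limits Zbp1, with at most 10 reads in a library, and Dhx58, with 6 to 14 reads in both libraries of 52205, 53105 and 53371. With 1 library per line and condition, a change within a single line could not be tested.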
